A study of Mus musculus with 74 samples.

Results

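The comparison of NOD mice homozygous for a null allele of Aire (Aire-/-) with NOD mice heterozygous for it (Aire+/-) rested on 6 of the 74 libraries of the series, 3 of each genotype. They were chosen by their titles and genotype labels, and each title carries its own animal number, 404, 405 and 406 for Aire-/- and 392, 395 and 402 for Aire+/-. All 6 came from mTEChi, the mature, MHC class II-high cells of the thymic medullary epithelium, sorted from dissociated thymi of mice aged 4 to 7 weeks. Libraries were made by MARS-seq, which tags the 3′ end of transcripts. The series as a whole sets mutant Aire alleles on the B6 (C57BL/6) and NOD backgrounds beside null alleles. NOD is the strain that develops autoimmune diabetes. The Aire+/- animals carry 1 null allele, so the comparison shows what losing the other copy goes with, and no wild type of the same title form was available as a further control. Neither the missing part of Aire in the null allele nor the sex of the animals is given in the labels. Nothing in the labels says how the sorted cells of an animal were pooled or split. The edgeR p-values of the NOD comparison rest on the spread between libraries within groups, estimated over 21 NOD libraries. Beside the 6 compared, these came from wild types, from heterozygotes for the mutant Aire allele C313Y and from mice with C313Y over a null allele.

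Aire encodes a transcriptional regulator that lets mature medullary thymic epithelial cells transcribe a large share of the genes otherwise confined to peripheral tissues, such as hormones, digestive enzymes and lens proteins. Developing T cells that recognise these self-proteins in the thymus are deleted or become regulatory T cells. Mice and people without functional AIRE develop autoimmunity against many organs, in people known as APS-1, and the organs attacked in mice depend on the strain.

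Aire-/- libraries held 2303689, 2530762 and 1536436 counts and Aire+/- libraries 3404021, 2640249 and 3692601 counts, so the Aire-/- libraries were the shallower. The most abundant gene took 1.31 to 2.22% of a library. Across the 13827 genes tested, Pearson's r of log2(CPM + 1) was 0.971 to 0.979 among Aire-/- libraries, 0.979 to 0.980 among Aire+/- libraries and 0.919 to 0.930 between genotypes, where CPM is a gene's count divided by the library total and scaled to 1000000. These are correlations across genes, which are not independent replicates. One Aire+/- library, 392, stood apart in 2 ways. It held 83.1 CPM of Xist, the RNA that coats the inactive X chromosome, together with a sum of 38.8 CPM over 4 Y-linked genes, while the other 5 libraries held 0 to 3.41 CPM of Xist and 169 to 200 CPM of the Y-linked genes. It also had the highest sum over thymocyte markers (411 CPM, against 136 to 175 CPM in Aire-/- and 198 and 228 CPM in the other Aire+/- libraries). Main counts are therefore also given without it. General epithelial genes, which are not particular to mTEChi, were present in every library. Epcam, an epithelial adhesion molecule, was at 303.4, 307.4 and 296.1 CPM in Aire-/- and at 332.8, 304.9 and 316.0 CPM in Aire+/- libraries. Krt8, a simple-epithelium keratin, was at 664, 719 and 635 CPM in Aire-/- and at 663, 639 and 698 CPM in Aire+/- libraries. Of the 10 markers of the sort listed, 3 rose (Aire, H2-Aa and Cd74), 0 fell and 7 did not pass edgeR's test (median log2 0.29). Over all genes tested, 4.21% rose.

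Aire transcript itself was higher, not lower, in the null homozygotes. It stood at 3084, 3034 and 3459 CPM in Aire-/- libraries, against 1962, 2532 and 2323 CPM in Aire+/- libraries. The ranges did not overlap, and the log2 difference was 0.64 ± 0.18 (SE; edgeR's quasi-likelihood test, Benjamini-Hochberg adjusted p = 0.013). The 8 NOD wild-type libraries of the same table, from other lines, spanned 2079 to 3250 CPM, which overlaps both genotypes. Without Aire-/- library 406 the edgeR adjusted p was 0.0517, and without Aire+/- library 392 it was 0.0889, so the call rested on single libraries. A 3′ tag outside the deleted part checks nothing about the knockout, and the level of Aire is therefore not a check of the labels.

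The promoter of Aire (RefSeq, GRCm38.p6, chr10:78043561-78043860, minus strand, from 250 bases before to 50 bases after the annotated start) is shown because the gene's own transcript was among those that rose. Capitals mark TATAAA.

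Aire: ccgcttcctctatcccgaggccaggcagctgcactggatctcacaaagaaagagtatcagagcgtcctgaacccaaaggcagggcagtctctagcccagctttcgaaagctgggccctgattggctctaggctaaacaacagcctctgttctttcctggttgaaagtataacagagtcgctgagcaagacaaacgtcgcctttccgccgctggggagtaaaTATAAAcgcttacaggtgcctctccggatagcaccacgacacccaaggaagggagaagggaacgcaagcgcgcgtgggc

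The genes beside Aire on chromosome 10 rose too. Dnmt3l, which encodes a catalytically inactive cofactor of the de novo DNA methyltransferases, stood at 217, 188 and 235 CPM in Aire-/- libraries, against 113, 101 and 99.1 CPM in Aire+/- libraries. The lowest Aire-/- library lay well above the highest Aire+/- library, and the log2 difference was 1.18 ± 0.21 (edgeR, adjusted p = 0.00024). The annotated spans of Dnmt3l and Aire overlap, and whether the counting used strand is not given in the sources used here. Icosl, the ligand of the costimulatory receptor ICOS, was at 791, 615 and 592 CPM in Aire-/- libraries, against 486, 484 and 526 CPM in Aire+/- libraries, a log2 difference of 0.56 ± 0.17 (edgeR, adjusted p = 0.023). Its call was lost without Aire-/- library 404 (adjusted p = 0.12) and without Aire+/- library 392 (0.0837) or 395 (0.0805). The same wild types spanned 354 to 733 CPM of Icosl, which overlaps both genotypes. Within 5 Mb of Aire, 21 of 163 tested genes (12.9%) passed the threshold, 11 of them higher and 10 lower, against 13.3% of all genes tested in either direction.

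**Figure D1:**
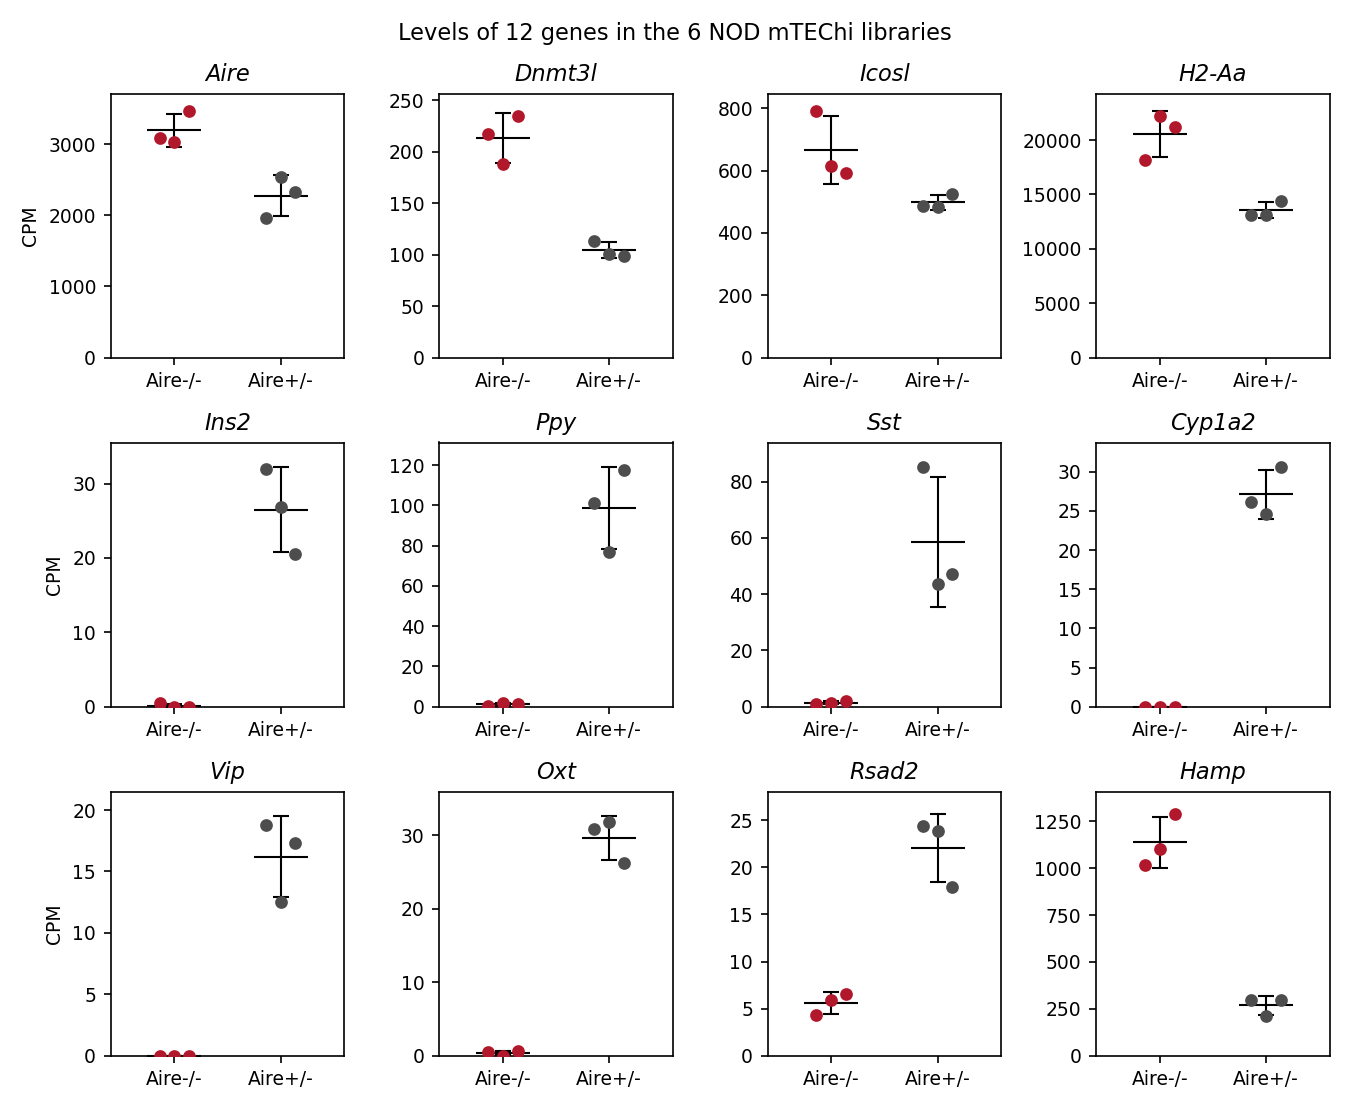
CPM (scaled counts, linear axes from 0) of 12 genes in the 3 Aire-/- libraries (left, red) and the 3 Aire+/- libraries (right, grey), with the mean (long bar) and SD (whiskers). Aire, Dnmt3l, Icosl, H2-Aa and Hamp lay higher in Aire-/- libraries, while Ins2, Ppy, Sst, Cyp1a2, Vip, Oxt and Rsad2 lay lower, and the ranges of the 2 genotypes did not overlap for any of the 12.

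Across the table, loss of the second Aire copy went mainly with lower levels, and the falls were far deeper than the rises. Of 13827 genes tested, 1842 passed an adjusted p of 0.05 (13.3%), 582 higher in Aire-/- (4.21%) and 1260 lower (9.11%). Of these, 166 were at least 2-fold higher (1.2% of genes tested) and 1182 at least 2-fold lower (8.55%). At least 8-fold lower were 577 genes by the fitted values, or 530 when genes without a count in Aire-/- were set at the bound that 3 counts over the group allow, and 1 gene, 4933436H12Rik, was at least 8-fold higher, with 17.8, 19.4 and 14.97 CPM in Aire-/- libraries, against 2.64, 0.758 and 2.17 CPM in Aire+/- libraries. The median log2 change was -2.75 among genes that fell (-2.63 with the same genes at their bound) and 0.79 among genes that rose, against -0.02 over all genes tested. Ranges of CPM did not overlap between genotypes for 5339 genes (38.6%). For 119 of the genes that fell, no Aire-/- library held a single count. Without Aire+/- library 392, edgeR called 1477 genes, 396 higher and 1081 lower, of which 1414 were shared with the fit of all libraries. Without Aire+/- library 395 it called 387 genes higher. A fit of the 6 libraries alone called 2655 genes, 1207 higher and 1448 lower, so 54.5% of its calls were lower, against 68.4% in the fit reported here, in which all 21 libraries of the table shared the estimate of the spread.

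Genes that fell were mostly expressed at low levels and genes that rose at high levels. The median level in Aire+/- libraries was 10.3 CPM for genes that fell and 62.5 CPM for genes that rose, against 22.2 CPM for all genes tested. When the genes were split into 4 equal groups by their mean CPM over the 6 libraries, 21.4% of the lowest group fell and 0.55% rose. In the second group 9.66% fell and 1.48% rose, and in the third 3.88% fell and 4.11% rose. In the top 3457 genes 1.504% fell and 10.7% rose. That last share was 20.7% in the fit of the 6 libraries alone and 6.94% without Aire+/- library 395. In simulated counts with the means and depths of these libraries, changes of 1.5-fold were recovered in 11.9% of genes, those of 2-fold in 38.8% and those of 4-fold in 83.3%.

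**Figure D2:**
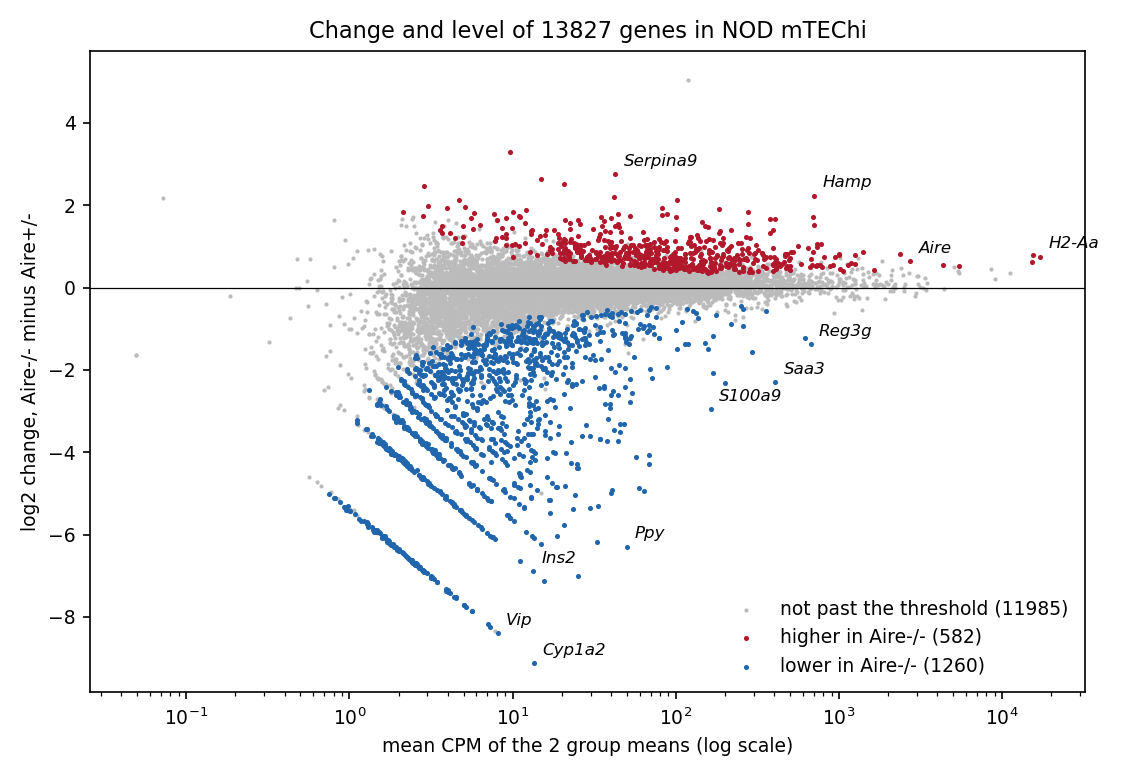
Log2 change (Aire-/- minus Aire+/-) of the 13827 genes tested against the mean of the 2 genotypes' mean CPM (log axis), with the 582 genes called higher in red and the 1260 called lower in blue. Falls reach far below -4 at low levels and rises crowd below 2 at higher levels; the lowest diagonal holds genes without a count in any Aire-/- library, whose fitted value is not a measured fold.

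Fewer of the 16591 genes that the authors deposited for NOD were detected in Aire-/- libraries. With every library thinned to 1536436 counts, 14937, 14823 and 14820 genes had at least 1 count in Aire-/- libraries, against 16078, 16036 and 16055 genes in Aire+/- libraries. The difference was -1196 genes, every Aire-/- library lay below every Aire+/- library, and the two-sided exact permutation p was 0.1, the smallest that 3 against 3 can give. With a minimum of 3 counts the difference was -1580 genes. Each deposited gene had a count of at least 6 in some of the 21 NOD libraries, most of which are not Aire-/-. Genes could thus enter through groups where they are high, so the direction was favoured by that filter and is not independent of it.

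By fitted log2 change, the largest falls were in genes of organs far from the thymus. For the 10 that the naming rule picked no count was found in Aire-/- libraries. Ranking by fitted values tends to put genes without a count first, so this absence came with the choice. Their folds are lower bounds and do not order them against other genes. Genes with a single Aire-/- count, given further below, had measured ratios such as 199 for Obp2a and 168 for Ins2. Cyp1a2, a liver cytochrome P450 that is an autoantigen in APS-1 hepatitis, was at 0, 0 and 0 CPM in Aire-/- libraries, against 26.1, 24.6 and 30.6 CPM in Aire+/- libraries, at least 58.2-fold lower when 3 counts over the 3 Aire-/- libraries are taken as the floor (edgeR, adjusted p = 5.3e-05). Vip, a neuropeptide of gut and brain, was at 0 in all Aire-/- libraries and at 18.8, 12.5 and 17.3 CPM in Aire+/- libraries, at least 35.1-fold lower. T, the brachyury factor of early mesoderm, had no Aire-/- count and 15.9, 11.4 and 16.5 CPM in Aire+/- libraries, at least 31.6-fold lower. All 3 genes were well detected in each Aire+/- library and absent from the counts of each Aire-/- library. The others were Reg3a (a gut antimicrobial lectin, at least 29.9-fold lower), Ambp (a liver plasma protein, at least 24.0-fold), Crh (the hypothalamic hormone that starts the stress axis, at least 23.8-fold), Bpifb5 (at least 22.2-fold), Cpz (a carboxypeptidase, at least 21.6-fold), Myoc (myocilin of the eye, at least 21.6-fold) and Wap (a milk protein, at least 19.6-fold).

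The promoters of Cyp1a2, Vip and T are shown as examples of the genes with the largest fitted falls. All are RefSeq entries of GRCm38.p6 and span 250 bases before to 50 after the annotated start. Cyp1a2 lies at chr9:57683606-57683905 on the minus strand, Vip at chr10:5638968-5639267 on the plus strand and T at chr17:8434173-8434472 on the plus strand. Capitals mark TATAAA, which T does not hold on either strand.

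Cyp1a2: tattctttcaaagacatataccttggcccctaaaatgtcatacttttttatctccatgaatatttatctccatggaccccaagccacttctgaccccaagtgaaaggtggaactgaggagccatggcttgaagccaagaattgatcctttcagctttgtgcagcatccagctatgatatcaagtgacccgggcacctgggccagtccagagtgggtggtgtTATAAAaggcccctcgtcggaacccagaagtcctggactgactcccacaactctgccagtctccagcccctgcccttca
Vip: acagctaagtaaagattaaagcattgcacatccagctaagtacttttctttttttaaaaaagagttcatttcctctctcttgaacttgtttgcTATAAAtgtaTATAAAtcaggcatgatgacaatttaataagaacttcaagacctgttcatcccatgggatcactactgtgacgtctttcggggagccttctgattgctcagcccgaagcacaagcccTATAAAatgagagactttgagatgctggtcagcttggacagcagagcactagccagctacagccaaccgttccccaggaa
T: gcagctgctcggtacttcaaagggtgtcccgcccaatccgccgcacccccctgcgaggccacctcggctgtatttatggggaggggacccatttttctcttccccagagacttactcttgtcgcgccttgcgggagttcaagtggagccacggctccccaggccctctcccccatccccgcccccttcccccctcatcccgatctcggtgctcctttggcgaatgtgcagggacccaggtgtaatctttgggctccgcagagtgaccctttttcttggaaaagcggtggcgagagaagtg

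Over all genes with a RefSeq promoter, the letters TATAAA were searched on both strands (as TATAAA or TTTATA), and a promoter counted once if it held either. Of 1182 genes at least 2-fold lower, 879 matched by symbol, with 1052 promoters, and 18.5% of these held the motif. Among genes at least 2-fold higher the share was 13.2% (151 promoters of 121 genes), against 8.56% of 13267 promoters over all genes tested. Within 45 to 16 bases before the start, the shares were 9.13% for genes that fell, 3.97% for genes that rose and 2.19% for all. CpG pairs were fewer in the promoters of genes that fell, with a median of 5 per promoter, against 9 for genes that rose and 19 for all. These are descriptions of the letters in these windows and say nothing of which factor binds there.

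Known Aire-induced antigens, the genes earlier work picked because they fall without Aire, mostly fell in NOD mTEChi as well. Of 34 listed genes 29 were in the table and 25 passed the filter on low counts, and of these 0 rose, 18 fell and 7 did not pass, with a median log2 change of -2.97 against -0.02 over all genes. The list was chosen on Aire-deficient thymi, so its direction is not independent evidence. Counts of this and each list below stand beside 9.11% of all genes tested called lower and 4.21% called higher. Obp2a, an odorant-binding lipocalin, had 1 count in the Aire-/- libraries (0.434, 0 and 0 CPM), against 26.7, 31.1 and 35.5 CPM in Aire+/- libraries, a ratio of 199 with a 95% exact binomial interval, for counting error only, of 35.4 to 7882. Csn1s2a, a casein of milk, was at 2.17, 1.98 and 1.95 CPM in Aire-/- libraries, against 49.9, 43.9 and 49.6 CPM in Aire+/- libraries (log2 -4.38 ± 0.46). Csn2, the milk protein beta-casein, did not follow it: it was at 2419, 2018 and 1994 CPM in Aire-/- libraries, against 1565, 1560 and 1466 CPM in Aire+/- libraries (log2 0.64 ± 0.22, edgeR adjusted p = 0.052).

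Several hormones of the pancreatic islet, the tissue that NOD mice lose to autoimmunity, were nearly absent from Aire-/- cells, among them Ins2, Ppy and Sst, while glucagon was not called. Ins2, which encodes insulin and is the form of insulin known to be made in the thymus, had 1 count in the Aire-/- libraries (0.434, 0 and 0 CPM) and 32.0, 26.9 and 20.6 CPM in Aire+/- libraries, a ratio of 168 with a counting interval of 29.8 to 6642. Ppy, pancreatic polypeptide, was at 0.434, 1.58 and 1.30 CPM in Aire-/- libraries, against 101, 76.9 and 118 CPM in Aire+/- libraries (log2 -6.29 ± 0.63, edgeR adjusted p = 6.8e-07). Sst, somatostatin, was at 0.868, 1.19 and 1.95 CPM in Aire-/- libraries, against 85.2, 43.6 and 47.1 CPM in Aire+/- libraries (log2 -5.34 ± 1.13, edgeR adjusted p = 0.0037). For each of the 3 hormones the highest Aire-/- library lay far below the lowest Aire+/- library. Iapp, islet amyloid polypeptide, fell by 2.71 on the log2 scale, with 6.95, 1.98 and 3.25 CPM in Aire-/- and 44.4, 18.9 and 25.5 CPM in Aire+/- libraries. Ucn3, a beta-cell peptide, had no Aire-/- count and was at least 7.63-fold lower. Of the 14 islet genes tested, 8 fell, 1 rose and 5 did not pass (median log2 -2.47). The one that rose was Ptprn2, the phogrin autoantigen of type 1 diabetes, by 0.86 ± 0.24 on the log2 scale, a call lost without Aire-/- library 405 (adjusted p = 0.108) and without Aire+/- library 392 (0.0516) or 395 (0.0531). Gad1, one of the glutamic acid decarboxylases, gave 33.4, 32.4 and 32.5 CPM in Aire-/- libraries and 25.6, 24.6 and 37.6 CPM in Aire+/- libraries, and Gcg, glucagon, gave 25.6, 25.3 and 24.1 CPM in Aire-/- libraries and 32.0, 40.5 and 26.5 CPM in Aire+/- libraries. Neither passed the test, with edgeR adjusted p of 0.63 and 0.76.

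Digestive enzymes of the pancreatic acinar cell fell almost as a block. Of 20 tested, 17 fell, 0 rose and 3 did not pass, and the median log2 change was -4.58, or -3.99 with the 2 genes lacking an Aire-/- count at their bound. Their summed level was 32.5 to 40.4 CPM in Aire-/- libraries, against 291 to 363 CPM in Aire+/- libraries. Pnlip, pancreatic lipase, and Try4, a trypsin, had no Aire-/- count and were at least 12.9-fold and at least 10.7-fold lower. Clps, the cofactor of that lipase, was at 0.434, 0 and 0.651 CPM in Aire-/- libraries, against 22.03, 25.00 and 33.3 CPM in Aire+/- libraries, a ratio of 86.4 (interval 23.7 to 717). Cel, bile-salt-activated lipase, was at 0.434, 0 and 0 CPM in Aire-/- libraries, against 13.2, 10.98 and 8.94 CPM in Aire+/- libraries, a ratio of 70.0 (interval 12.3 to 2791). Ctrl, a chymotrypsin-like protease, and Gp2, a zymogen granule protein, did not pass, with log2 values of 0.29 and -0.93. Trypsins are near-identical copies, and how the authors' counting split reads between them is not given.

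Liver and gut genes fell less evenly. Among 20 liver plasma proteins tested, 15 fell, 0 rose and 5 did not pass (median log2 -2.23), and Fgb and Fgg, which encode chains of fibrinogen, gave ratios of 47.4 (interval 12.9 to 395) and 41.2 (interval 11.2 to 344) lower. Alb, serum albumin, was at 0, 0.395 and 0.651 CPM in Aire-/- libraries, against 7.05, 11.7 and 5.42 CPM in Aire+/- libraries (log2 -4.32 ± 0.70). Of 28 genes of the gut epithelium, 17 fell, 2 rose and 9 did not pass (median log2 -1.47). Gip, an incretin hormone, was at 0.868, 0.395 and 1.30 CPM in Aire-/- libraries, against 32.3, 21.2 and 43.6 CPM in Aire+/- libraries (log2 -5.15 ± 0.51), and Reg4, a secreted lectin, was at 1.30, 0 and 2.60 CPM against 32.3, 29.5 and 31.7 CPM in the same order (log2 -4.61 ± 0.57). Gast, which encodes gastrin, was 68.7 times lower (interval 12.1 to 2739). The 2 gut genes that rose were Sis, a brush-border disaccharidase, by 1.44 ± 0.48 and Guca2b, uroguanylin, by 0.86 ± 0.27 on the log2 scale, and both calls rested on single libraries. Sis was not called when any one of the 6 libraries was left out (adjusted p 0.0506 to 0.137), and Guca2b was not called without Aire-/- library 406 (0.304) or Aire+/- library 392 (0.132) or 402 (0.0927). Apoa4, an intestinal apolipoprotein, did not pass (log2 -0.26 ± 0.27, edgeR adjusted p = 0.65).

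Most neuropeptide genes and most genes of lens and retina fell. Of 23 neuropeptide genes tested, 20 fell, 1 rose and 2 did not pass (median log2 -3.22). Oxt, oxytocin, was at 0.434, 0 and 0.651 CPM in Aire-/- libraries, against 30.8, 31.8 and 26.3 CPM in Aire+/- libraries, a ratio of 93.6 (interval 25.7 to 776), and Trh, thyrotropin-releasing hormone, was at least 17.7-fold lower. The member that rose, Calcb, the beta form of calcitonin gene-related peptide, was at 1293, 1217 and 1142 CPM in Aire-/- libraries, against 876, 811 and 677 CPM in Aire+/- libraries (log2 0.78 ± 0.21), a call lost without Aire+/- library 402 (adjusted p = 0.0614). Of 15 lens and retina genes, 14 fell and 0 rose (median log2 -3.13, or -3.05 with the 3 genes lacking an Aire-/- count at their bound). In the fit of the 6 libraries alone 9 of 10 tested fell, and after thinning to equal depth 9 of 14. Crybb2, a beta-crystallin of the lens, was at 0.434, 0 and 1.30 CPM in Aire-/- libraries, against 23.5, 18.6 and 17.1 CPM in Aire+/- libraries, a ratio of 41.9 (interval 14.1 to 205). Crygb, Cryba1 and Cryge, further crystallins, had no Aire-/- count and were at least 10.7-fold, 9.60-fold and 7.20-fold lower.

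Muscle, secretory gland and germ-cell genes were mixed. Of 20 muscle and heart genes, 9 fell, 1 rose and 10 did not pass (median log2 -1.23). Myh8, a developmental myosin heavy chain, gave a ratio of 31.1 (interval 8.37 to 260) lower, Myh3, another, fell by 2.88 on the log2 scale, and Actc1, cardiac actin, was at 0.434, 0.790 and 9.11 CPM in Aire-/- libraries, against 34.4, 33.3 and 23.0 CPM in Aire+/- libraries (log2 -3.26 ± 0.61). Des, the intermediate filament desmin, rose instead, with 1058, 848 and 930 CPM in Aire-/- libraries, against 512, 538 and 537 CPM in Aire+/- libraries (log2 0.99 ± 0.15, edgeR adjusted p = 2.8e-05). Of 17 milk, salivary and lacrimal genes, 11 fell, 0 rose and 6 did not pass (median log2 -3.51), among them Scgb3a1, a secretoglobin (ratio 59.5, interval 10.4 to 2377), and Lcn3, a lipocalin of nasal glands (ratio 60.9, interval 10.7 to 2429). Of 9 germ-cell genes, 4 fell, 2 rose and 3 did not pass. Zp3, an egg-coat protein, was at 2.17, 1.98 and 1.30 CPM in Aire-/- libraries, against 29.96, 39.0 and 34.9 CPM in Aire+/- libraries (log2 -4.02 ± 0.37), whereas Zp2, another egg-coat protein, rose by 0.75 ± 0.20, a call lost without Aire+/- library 395 (adjusted p = 0.091), and Dnmt3l was the other that rose. Prm1, a sperm protamine, fell by 3.81 on the log2 scale, and Piwil2, a piRNA-binding protein, had no Aire-/- count (at least 6.11-fold lower).

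Orthologues of the autoantigens of people with APS-1 were not uniformly lower. Of 13 tested, 5 fell, 1 rose and 7 did not pass (median log2 -0.74). Beside Cyp1a2, Cyp11a1, the first enzyme of steroid hormone synthesis, was at 0.868, 3.16 and 1.95 CPM in Aire-/- libraries, against 37.9, 40.1 and 53.1 CPM in Aire+/- libraries (log2 -4.25 ± 0.43). Th, tyrosine hydroxylase, gave a ratio of 37.9 (interval 10.3 to 317) lower, and Sox10, a factor of melanocytes and glia, had no Aire-/- count and was at least 9.38-fold lower. Hdc, histidine decarboxylase, rose, with 1585, 1388 and 1609 CPM in Aire-/- libraries, against 953, 973 and 1033 CPM in Aire+/- libraries (log2 0.78 ± 0.14, edgeR adjusted p = 0.00026). Antigens reported to depend on Fezf2, a second regulator of medullary self-antigens, were measured in 10 genes: 4 fell, 0 rose and 6 did not pass, and the 4 were Akr1b7, Ttr, Apob and Fabp9. Fabp9, a testis fatty-acid-binding protein, was at 23.4, 24.5 and 32.5 CPM in Aire-/- libraries, against 71.7, 81.4 and 77.2 CPM in Aire+/- libraries (log2 -1.38 ± 0.34, edgeR adjusted p = 0.0073). The other calls rested on single libraries: Apob was lost without Aire-/- library 405 (adjusted p = 0.0834), Ttr without Aire-/- library 404 (0.0706) or 405 (0.0716), and Akr1b7 without Aire-/- library 404 (0.16) or 406 (0.164) or Aire+/- library 402 (0.416). Fezf2 itself was at 1001, 937 and 1030 CPM in Aire-/- libraries and at 1129, 1087 and 1199 CPM in Aire+/- libraries, and did not pass (log2 -0.05 ± 0.13, edgeR adjusted p = 0.88). Its CPM ranges did not overlap, but CPM lacks the library scaling that the log2 change carries.

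**Figure D3:**
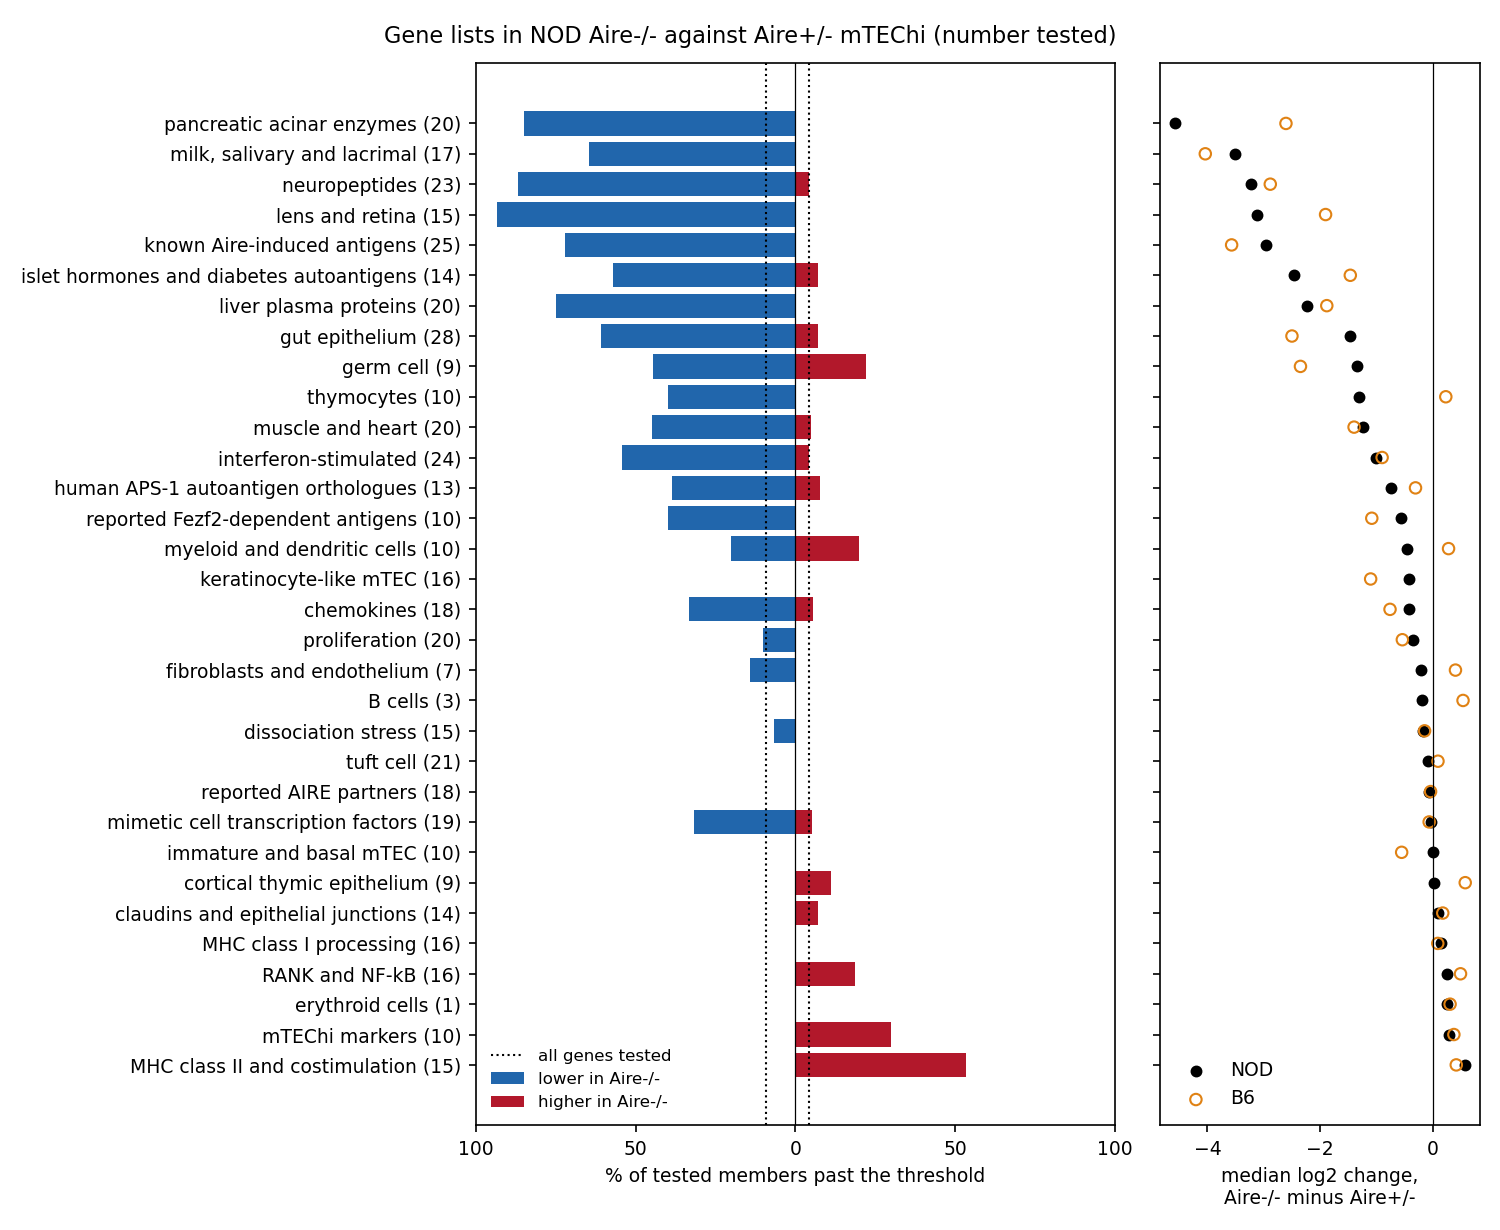
Left, the percentage of tested members of each gene list (number in brackets) called lower (blue, leftward) or higher (red, rightward) in Aire-/- against Aire+/- NOD mTEChi, with dotted lines at 9.11% lower and 4.21% higher for all genes tested. Right, the median log2 change of each list's tested members in NOD (filled) and in B6 (open); tissue-antigen lists lie to the left, with a median of -4.58 for acinar enzymes in NOD, and among the NOD points MHC class II and costimulation lies furthest right at 0.56.

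Of 15 tested genes of MHC class II and costimulation, 8 rose, 0 fell and 7 did not pass (median log2 0.56), against 4.21% of all genes called higher. H2-Aa, the alpha chain of the class II molecule, was at 18173, 22236 and 21161 CPM in Aire-/- libraries, against 13129, 13125 and 14387 CPM in Aire+/- libraries (log2 0.75 ± 0.17, edgeR adjusted p = 0.0029). H2-Ab1, its beta chain, was at 15864, 19795 and 20432 CPM in Aire-/- libraries, against 11073, 11564 and 13320 CPM in Aire+/- libraries (log2 0.79 ± 0.16). The lowest Aire-/- library lay above the highest Aire+/- library for both chains. In the 8 NOD wild types of other lines H2-Aa was at 8282 to 12898 CPM, below both genotypes. H2-Ab1 was there at 9705 to 14925 CPM, which overlaps the Aire+/- range. H2-Oa, a regulator of peptide loading, rose by 0.73 ± 0.14 and Ciita, the master regulator of class II genes, by 0.65 ± 0.21, though Ciita was not called when any one of the 6 libraries was left out (adjusted p up to 0.14). Cd74, the invariant chain, overlapped between genotypes, with 14566, 19953 and 18335 CPM in Aire-/- libraries and 10751, 14659 and 12945 CPM in Aire+/- libraries (log2 0.62 ± 0.19, edgeR adjusted p = 0.025). It was not called without Aire-/- library 405 or 406 or without Aire+/- library 392 or 402 (adjusted p 0.0576 to 0.151). Without Aire+/- library 392, 4 of the 15 genes were called higher, and without Aire-/- library 405 or 406 or Aire+/- library 395, 5. The other leave-outs and thinning to equal depth gave 6.

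Of the 16 genes of MHC class I processing, edgeR called 0. At an unadjusted p of 0.05 it passed 2, DESeq2 called 0, and the fit of the 6 libraries alone called 3, all higher. Of 16 genes of RANK and NF-kB signalling, the route through which mTEC mature, 3 rose and 0 fell, namely Nfkbia, Traf1 and Relb. That is 18.75%, against 4.21% of all genes called higher. Nfkbia, the NF-kB inhibitor, was at 4731, 4701 and 5392 CPM in Aire-/- libraries, against 3680, 4076 and 3448 CPM in Aire+/- libraries (log2 0.56 ± 0.13, edgeR adjusted p = 0.0043). Relb and Traf1 rose by 0.49 and 0.56 on the log2 scale and lost their calls when Aire-/- library 406 or Aire+/- library 392 or 395 was left out (adjusted p 0.0625 to 0.141), which left 1 of the 16. Traf1 was also lost without Aire-/- library 404 (0.0702). Of 14 claudin and junction genes 1 rose (7.14%, against 4.21% of all genes called higher). It was F11r, junctional adhesion molecule A, with 475, 522 and 455 CPM in Aire-/- libraries, against 367, 335 and 301 CPM in Aire+/- libraries (log2 0.69 ± 0.14).

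The largest rises were smaller than the largest falls. Beside 4933436H12Rik, given above, the largest was that of Serpina9, a protease inhibitor of germinal-centre B cells, was at 76.4, 61.6 and 82.01 CPM in Aire-/- libraries, against 6.46, 9.85 and 19.2 CPM in Aire+/- libraries (log2 2.75 ± 0.33, edgeR adjusted p = 2.6e-06). Hamp, which encodes the iron hormone hepcidin, was at 1020, 1104 and 1289 CPM in Aire-/- libraries, against 299, 212 and 299 CPM in Aire+/- libraries (log2 2.23 ± 0.43, edgeR adjusted p = 0.0015). Ostn, the peptide musclin, was at 156, 152 and 177 CPM in Aire-/- libraries, against 43.5, 34.1 and 44.7 CPM in Aire+/- libraries (log2 2.13 ± 0.35). The genotypes were far apart for all 3, with every Aire-/- library at least 3 times the highest Aire+/- library. Syn2, a synaptic vesicle protein, was at 283, 259 and 304 CPM in Aire-/- libraries, against 82.3, 78.8 and 89.6 CPM in Aire+/- libraries (log2 1.90 ± 0.20, edgeR adjusted p = 1.3e-07). The NOD wild types of other lines spanned 31.4 to 59.8 CPM of Syn2, below both genotypes. For Serpina9, Hamp and Ostn the wild-type range overlapped that of Aire+/- libraries. For Hamp (38.8 to 217 CPM, median 117) and Ostn (9.86 to 38.0 CPM, median 14.9) it did so only at its top end. The wild-type medians of these 2 genes lay below every Aire+/- library. The other genes picked by size were Fam19a1 (log2 2.51 ± 0.37), Uts2b, a urotensin peptide (2.20 ± 0.30), Ctla4, an inhibitory receptor of T cells (1.96 ± 0.48), M1ap, a meiosis protein (1.93 ± 0.23), Prokr2, the prokineticin receptor (1.89 ± 0.29), and Cpne2, a copine (1.83 ± 0.21). Ctla4 was low, at 6.95, 8.69 and 8.46 CPM in Aire-/- libraries and 2.06, 1.89 and 2.71 CPM in Aire+/- libraries, and was not called after thinning to equal depth (edgeR adjusted p = 0.11).

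Of 24 interferon-stimulated genes tested, 13 fell, 1 rose and 10 did not pass (median log2 -1.001), against 9.11% of all genes called lower. Their summed level overlapped between genotypes, at 4653 to 5182 CPM in Aire-/- and 5024 to 5580 CPM in Aire+/- libraries. Rsad2, the antiviral protein viperin, was at 4.34, 5.93 and 6.51 CPM in Aire-/- libraries, against 24.4, 23.9 and 17.9 CPM in Aire+/- libraries (log2 -1.83 ± 0.40, edgeR adjusted p = 0.0019). Isg15, a ubiquitin-like modifier, was at 87.3, 104 and 96.3 CPM in Aire-/- libraries, against 227, 242 and 252 CPM in Aire+/- libraries (log2 -1.18 ± 0.18, edgeR adjusted p = 2.5e-05). Irf7, the factor that amplifies type I interferon, fell by 1.34 on the log2 scale, a call lost without Aire-/- library 404 (adjusted p = 0.0581) or 406 (0.09). Every Aire-/- value of these 3 genes lay below every Aire+/- value. The list was not uniform: Ifit1 was at 102, 99.6 and 117 CPM in Aire-/- libraries and at 116, 114 and 118 CPM in Aire+/- libraries (log2 0.01 ± 0.28), and Cxcl10, a chemokine for activated T cells, rose to 2565, 2986 and 3121 CPM in Aire-/- libraries, against 1681, 1900 and 1880 CPM in Aire+/- libraries (log2 0.82 ± 0.17, edgeR adjusted p = 0.00097). Without Aire-/- library 406, 8 members were called lower.

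Several chemokines and antimicrobial proteins fell from high levels. Of 18 chemokines, 6 fell, 1 rose and 11 did not pass, so 38.9% were called, against 13.3% of all genes tested. Ccl5, an attractant of T cells, was at 360, 314 and 352 CPM in Aire-/- libraries, against 946, 840 and 876 CPM in Aire+/- libraries (log2 -1.23 ± 0.29). Xcl1, the ligand that draws cross-presenting dendritic cells to the medulla, was at 0.868, 1.58 and 1.30 CPM in Aire-/- libraries, against 18.8, 11.4 and 10.8 CPM in Aire+/- libraries (log2 -3.25 ± 0.70, edgeR adjusted p = 0.0020). Ccl20, the CCR6 ligand, fell by 1.37 and Cxcl13, the B-cell attractant, by 2.16 on the log2 scale. Reg3g, a gut antimicrobial lectin, was at 334, 375 and 325 CPM in Aire-/- libraries, against 1003, 1026 and 956 CPM in Aire+/- libraries (log2 -1.38 ± 0.23). Saa3, an acute-phase protein, was at 164, 119 and 96.3 CPM in Aire-/- libraries, against 655, 607 and 800 CPM in Aire+/- libraries (log2 -2.29 ± 0.26), and S100a9, a subunit of calprotectin, was at 37.3, 33.2 and 31.9 CPM in Aire-/- libraries, against 279, 295 and 310 CPM in Aire+/- libraries (log2 -2.95 ± 0.29). S100a8, the other subunit, was at 144, 89.7 and 180 CPM in Aire-/- libraries, against 371, 501 and 483 CPM in Aire+/- libraries (log2 -1.57 ± 0.49, edgeR adjusted p = 0.041), but was not called when any one library was left out (adjusted p 0.0522 to 0.157).

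Markers of other medullary states were called to unlike extents. Mimetic cells are mTEC that take on the expression of a peripheral cell type under its lineage factor. Of 19 such factors tested, 6 fell, 1 rose and 12 did not pass (median log2 -0.03). Thus 36.8% were called, against 13.3% of all genes tested. Hoxb13, a posterior homeobox factor, was at 0.434, 0.395 and 0.651 CPM in Aire-/- libraries, against 20.9, 23.9 and 24.4 CPM in Aire+/- libraries, a ratio of 48.9 (interval 16.5 to 239). Foxi1, of ionocytes, and Mcidas, of multiciliated cells, were low and gave ratios of 23.6 (interval 3.97 to 956) and 18.3 (interval 4.84 to 155) lower. Mcidas was not called without Aire-/- library 404 (adjusted p = 0.0662). Of the 19, 2 were called lower without Aire-/- library 404, and 3 without Aire-/- library 405 or Aire+/- library 402. Insm1, a neuroendocrine factor, rose by 0.51 ± 0.13. Of 21 tuft-cell genes edgeR called 0, with 4 at an unadjusted p of 0.05 and 0 by DESeq2 (median log2 -0.08, 12 of 21 below 0). Of 16 keratinocyte-like genes edgeR called 0, with 4 at an unadjusted p of 0.05 and 1 by DESeq2 (median log2 -0.42, 12 of 16 below 0). Of 10 genes of immature and basal mTEC edgeR called 0, with 1 at an unadjusted p of 0.05 and 0 by DESeq2 (median log2 0.01, 5 of 10 below 0). The fit of the 6 libraries alone called 4, 4 and 3 of these lists, and 1 tuft-cell gene was called without Aire-/- library 404. In simulated counts 2-fold changes were recovered in 38.8% of genes, so a missing call does not show that a gene was unchanged. Of 18 genes for reported AIRE partners edgeR called 0, with 1 at an unadjusted p of 0.05, 0 by DESeq2 and 2 in the fit of the 6 libraries alone.

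Of 20 proliferation genes tested, 2 fell, a share close to the 9.11% of all genes called lower. All 20 had a log2 value below 0 (median -0.35), as did 52.2% of all genes tested. The 2 were Mcm5, a replication helicase subunit (log2 -0.82 ± 0.22), and Rrm2, a ribonucleotide reductase subunit (log2 -0.53 ± 0.18), and 0 were called without Aire-/- library 405 or without library 406. Leaving out any one Aire+/- library left 1. The summed level of the list was 926, 797 and 648 CPM in Aire-/- libraries, against 1217, 1067 and 1119 CPM in Aire+/- libraries. Of 15 genes of the stress of dissociation 1 fell (6.67%), below the 9.11% of all genes called lower. It was Nr4a1, an immediate-early receptor (log2 -1.22 ± 0.33). Nr4a1 was not called without Aire-/- library 406 (edgeR adjusted p = 0.0672) or Aire+/- library 392 (0.0574).

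Markers of other cells that a thymus sort could hold were also compared. In such bulk libraries fewer cells of a type and less RNA per cell cannot be told apart. All 10 thymocyte markers tested had a log2 value below 0 (median -1.31) and 4 fell (40%, against 9.11% of all genes called lower). Their summed level was 136 to 175 CPM in Aire-/- and 198 to 411 CPM in Aire+/- libraries. Cd3d, a chain of the T cell receptor complex, was at 8.68, 5.14 and 5.86 CPM in Aire-/- libraries, against 26.7, 15.2 and 19.8 CPM in Aire+/- libraries (log2 -1.50 ± 0.34, edgeR adjusted p = 0.0025). Without library 392, the highest of the 6, 2 of the 10 were called, and Lck was not (adjusted p = 0.0525). Their part in the other falls was not tested. Of 10 myeloid and dendritic markers, 2 fell, Adgre1 and Csf1r, and 2 rose, Batf3 and Lyz2 (40% called, against 13.3% of all genes). The sums of these markers were 1245 to 1559 CPM in Aire-/- and 1203 to 1425 CPM in Aire+/- libraries. Batf3, a factor of dendritic cells, was at 108, 90.9 and 91.8 CPM in Aire-/- libraries, against 46.7, 46.6 and 55.8 CPM in Aire+/- libraries (log2 1.11 ± 0.20). The other 3 calls rested on single libraries: Lyz2 was lost without Aire-/- library 404, 405 or 406 or Aire+/- library 392 or 395 (adjusted p 0.0584 to 0.14), Adgre1 without Aire-/- library 405 (0.0541) and Csf1r without Aire-/- library 405 (0.195). The 1 erythroid gene tested did not pass (log2 0.26). B-cell markers passed in 0 of 3 by edgeR, with 1 at an unadjusted p of 0.05, 0 by DESeq2 and 1 in the fit of the 6 libraries alone. Of 7 markers of fibroblasts and endothelium 1 fell (14.3%, against 9.11% of all genes called lower). It was Col1a1, a collagen (log2 -1.15 ± 0.37), a call lost without Aire-/- library 404 or 406 or Aire+/- library 392 or 402 (edgeR adjusted p 0.102 to 0.187). The sums of these markers were 200 to 262 CPM in Aire-/- and 217 to 250 CPM in Aire+/- libraries. Of 9 markers of cortical thymic epithelium 1 rose (11.1%, against 4.21% of all genes called higher). It was Tbata, a thymus and testis gene, with 1135, 1204 and 1342 CPM in Aire-/- libraries, against 783, 714 and 841 CPM in Aire+/- libraries (log2 0.81 ± 0.14).

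Genes that fell lay beside each other on the chromosomes. Of the genes at least 2-fold lower that had a position, 39.9% had a neighbouring tested gene that was also at least 2-fold lower, against 15.9% of all 13216 tested genes with a position. Neighbours are adjacent tested genes in order of position. The longest run was the kallikrein cluster of chromosome 7 (GRCm38.p6, chr7:43834157-44236122), where 16 consecutive tested genes were at least 2-fold lower, from Klk5 past Klk1, the tissue kallikrein, to the predicted gene 1700028J19Rik. The next was the Oas cluster of chromosome 5 (chr5:120730333-120873506), with 7 consecutive 2′-5′ oligoadenylate synthetase genes from Oas2 to Oas1h. Runs of 5 or 6 included serine proteases of chromosome 17 (Prss34 to Tpsg1), among them mast-cell tryptases. On chromosome 14 a run held mast-cell proteases beside Ctsg and Gzmf (Mcpt1 to Gzmf), and on chromosome 2 lipocalins beside the ficolin Fcna (Fcna to Obp2a). The trypsins of chromosome 6 (Try4 to Prss2) and the late cornified envelope genes of chromosome 3 (Lce3a to Lce3e) were further runs. Kallikreins, trypsins and other recent duplicates are close copies, among which reads may be shared. Another run of 6, from Crhr2 to Ppp1r17 on chromosome 6, is not of a single family. It holds the related peptide hormone receptors Crhr2, Ghrhr and Adcyap1r1 beside Inmt, Aqp1 and Ppp1r17.

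The same genotypes were compared in B6 mTEChi, in 4 Aire-/- and 5 Aire+/- libraries of another table that share no library with the NOD comparison. There 4287 of 12700 genes tested passed (33.8%), 2068 higher and 2219 lower, with 1245 at least 2-fold lower (9.8%) and 319 at least 2-fold higher (2.51%). Of the 1245, 1206 were tested in NOD, and 755 fell (62.6%) and 1 rose in NOD, with a median log2 change of -1.93 and 94.7% of values below 0. The 1239 of the 1245 that the NOD table holds took 1.52, 1.52 and 1.48% of all counts in NOD Aire-/- libraries, against 3.38, 3.40 and 3.48% in NOD Aire+/- libraries. The 8 NOD wild-type libraries of other lines lay at 2.85 to 3.60% (median 3.33%), so for this set the heterozygotes fell inside the wild-type range and the null homozygotes outside it. The placement depended on the fold limit. With all genes called lower in B6, the shares were 15.84, 16.12 and 15.82% in heterozygotes and 16.52 to 17.79% in the wild types. There every heterozygote lay below every wild type, and line and genotype cannot be told apart. Of the 319 genes, 284 were tested in NOD, and 113 rose and 2 fell there (median log2 0.71). The 306 of the 319 in the NOD table took 2.27, 2.28 and 2.43% of counts in NOD Aire-/- libraries, against 1.41, 1.37 and 1.41% in NOD Aire+/- libraries and 0.84 to 1.19% in the 8 wild types. For this set the heterozygotes lay above the wild types, but the lines differ as well as the genotype and these cannot be told apart.

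**Figure D4:**
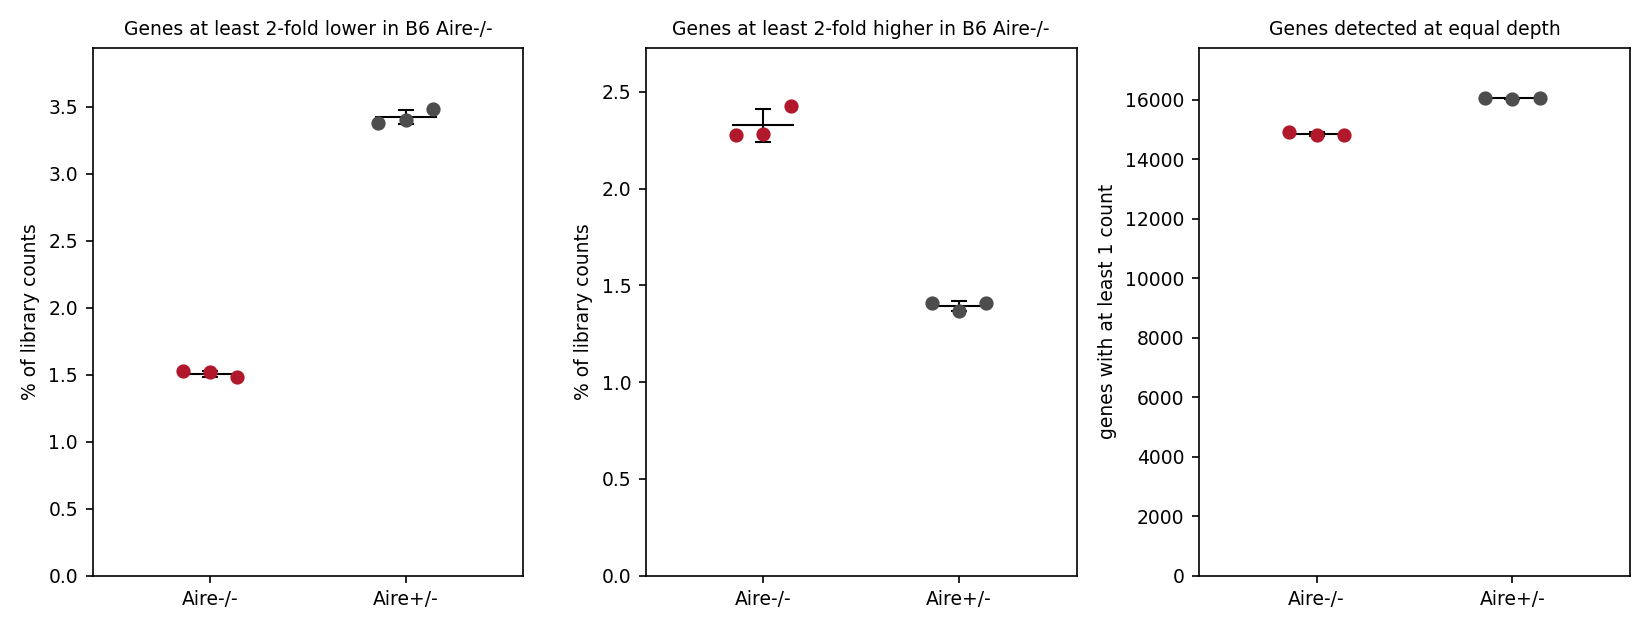
Values of the 3 Aire-/- (left, red) and 3 Aire+/- (right, grey) NOD libraries with mean and SD, on axes from 0: the percentage of library counts in genes at least 2-fold lower in B6 Aire-/- (1.48 to 1.52% against 3.38 to 3.48%), that in genes at least 2-fold higher in B6 Aire-/- (2.27 to 2.43% against 1.37 to 1.41%), and how many genes kept a count once thinned to 1536436 counts (14820 to 14937 against 16036 to 16078).

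Seen from NOD, 924 of the genes at least 2-fold lower were tested in B6 and 782 of them (84.6%) were called lower there. Of the genes at least 2-fold higher, 157 were tested in B6 and 120 (76.4%) were called higher. Over the 12462 genes tested in both strains the log2 changes had a Pearson's r of 0.803 and a Spearman's rho of 0.600, a description across genes, with the same assay and the same genome build behind both. Of 1280 genes called in both strains, 16 went opposite ways.

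A test of the difference between the strains' changes found 517 of 13235 genes (3.91%), 287 with the more positive change in NOD (2.17%) and 230 with the more negative one (1.74%). Without NOD Aire+/- library 392 there were 329, and without NOD Aire-/- library 405 there were 341. Rises that NOD showed and B6 did not were among them. Serpina9 was at 73.3 ± 10.5 CPM in NOD Aire-/- and 11.8 ± 6.61 CPM in NOD Aire+/- libraries (SD, n = 3 each), but at 10.6 ± 3.34 CPM in B6 Aire-/- (n = 4) and 13.8 ± 2.20 CPM in B6 Aire+/- libraries (n = 5); the difference of the log2 changes was 3.03 ± 0.39 (SE; edgeR, adjusted p = 5.3e-05). Hamp was at 1138 ± 137 CPM in NOD Aire-/- and 270 ± 50.4 CPM in NOD Aire+/- libraries, but at 265 ± 40.8 CPM in B6 Aire-/- and 216 ± 44.0 CPM in B6 Aire+/- libraries (difference 1.86 ± 0.25, edgeR adjusted p = 0.00064). Ostn was at 162 ± 13.4 CPM in NOD Aire-/- and 40.7 ± 5.80 CPM in NOD Aire+/- libraries, but at 12.7 ± 3.47 CPM in B6 Aire-/- and 12.4 ± 2.07 CPM in B6 Aire+/- libraries (difference 1.998 ± 0.241, edgeR adjusted p = 2.1e-06). For these 3 genes the B6 test of Aire-/- against Aire+/- did not pass. Uts2b and Cpne2 rose in both strains, and more in NOD (differences 1.22 ± 0.25 and 0.69 ± 0.17). The T-cell markers Cd3d and Lck and the macrophage receptor Csf1r, which fell in NOD, did not pass in B6, and the differences of -1.73, -1.15 and -1.17 passed.

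Among the genes called in opposite directions, the difference itself passed for 15 of 16. The 6 with the largest difference, chosen after their values were seen, were Prg3, Myh4, Vwf, Drc1, Fbn1 and Tg. Myh4, a fast muscle myosin, was at 4.88 ± 2.62 CPM in NOD Aire-/- and 14.9 ± 3.41 CPM in NOD Aire+/- libraries, but at 139 ± 10.3 CPM in B6 Aire-/- and 56.2 ± 5.98 CPM in B6 Aire+/- libraries (difference -2.75 ± 0.29, edgeR adjusted p = 1.8e-07). Its NOD fall was not called without Aire-/- library 404 (adjusted p = 0.0948) or 406 (0.0691) or Aire+/- library 402 (0.065). Prg3, an eosinophil granule protein, and Vwf, von Willebrand factor, likewise fell in NOD and rose in B6, with differences of -3.15 ± 0.26 and -2.71 ± 0.33. Fbn1, the microfibril protein fibrillin-1, ran the other way, with 84.2 ± 3.83 CPM in NOD Aire-/- and 51.4 ± 4.74 CPM in NOD Aire+/- libraries, but 11.5 ± 2.84 CPM in B6 Aire-/- and 31.9 ± 4.66 CPM in B6 Aire+/- libraries (difference 2.21 ± 0.22, edgeR adjusted p = 5.9e-08). Tg, thyroglobulin, a target of thyroid autoimmunity, rose by 1.42 ± 0.25 in NOD and fell by 0.74 on the log2 scale in B6 (difference 2.18 ± 0.27). Whether sequence differences between NOD and the reference genome, the age or sex of the animals or the handling of the 2 tables moved with these differences was not tested.

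**Figure D5:**
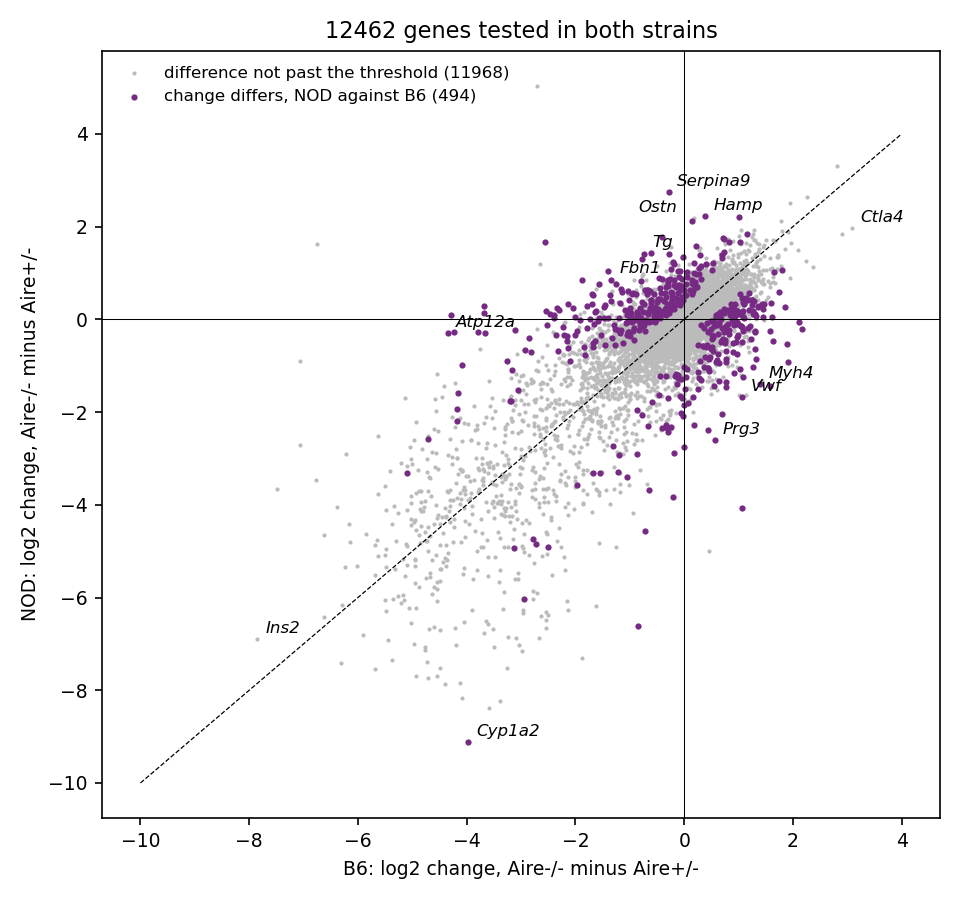
Log2 change (Aire-/- minus Aire+/-) in NOD (vertical axis) against that in B6 (horizontal axis) for the 12462 genes tested in both strains, with genes whose change differs between strains in purple and the line of equal change dashed. Most genes lie along the dashed line into the lower left, where Ins2 fell in both strains, while Serpina9, Hamp and Ostn lie above it and Prg3, Myh4 and Vwf below it.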

How the data were processed

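MARS-seq libraries were made from sorted mTEChi, per the labels' protocols. The submitters' processing notes name bcl2fastq, cutadapt, STAR 2.4.2a, HTSeq, DESeq2 and the mm10 build. Use of molecular identifiers, of strand and of an annotation is not given in the sources used here. The authors deposited raw counts per gene, 1 table for NOD (16591 genes, each with a count of at least 6 in some library) and 1 for B6 (15991 genes). The deposited tables also hold the authors' log2 fold changes and p-values, whose log2 values run heterozygote over null.

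The test was edgeR 4.0.16 on the counts, run in R 4.3.3 (TMM, expression filter, robust quasi-likelihood F test, Benjamini-Hochberg adjusted p under 0.05). All 21 libraries and 6 groups of the NOD table were in the NOD fit, and 12 libraries in the B6 fit. Beside the compared genotypes, the NOD fit held wild types of the C313Y title forms, C313Y heterozygotes and mice with C313Y over a null allele. The B6 fit also held wild types. The difference between strains was the contrast of the 2 changes over the genes of both tables. CPM divides by the library total, without the TMM factors that the log2 changes carry. Log2 changes therefore need not match ratios of CPM, and for Aire, H2-Aa and Fezf2 they lay higher. The same holds for summed CPM. Depth was 1536436 to 3692601 counts per library. Where no Aire-/- library held a count, folds are lower bounds from a floor of 3 counts over the 3 libraries, and with 1 to 3 counts the ratio carries an exact binomial 95% interval. Both cover counting error only. Detected genes were averaged over 20 random thinnings. The fit was tested on simulated counts. Promoters came from RefSeq tables matched by symbol.

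Genes were named by a rule: Aire, Dnmt3l and Icosl; up to 10 each way by log2 change (ranges apart, and a mean of 5 CPM or more where higher); as many as 6 each way by CPM difference; up to 4 per list; and up to 4 each way by the difference between strains, passing over genes known only by Gm numbers or Rik clone names. Further list members, among them those that moved against their list, 4933436H12Rik, and the genes called in opposite directions in the strains were named after their values were seen. The comparison and its 32 gene lists (523 genes, 488 of them in the NOD table) were chosen with earlier results of these data known. Listed genes outside the table were not analysed here. Alternatives were DESeq2 1.42.0, other size factors, no filter, the 6 libraries alone, each library left out, and, chosen after seeing the data, thinning to equal depth. A further alternative added a yes-or-no term for whether a library's Xist exceeded its summed Y-linked genes, as a stand-in for sex. A B6 library whose title and genotype label disagree was left out.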

Additional observations from a re-analysis of the deposited data

Results flagged for a closer look

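The change with Aire genotype differed between NOD and B6, by edgeR's test of the difference (adjusted p under 0.05), for these named genes, given as the NOD minus the B6 log2 change. Higher in NOD were Serpina9 (3.03), Ostn (1.998), Hamp (1.86), Uts2b (1.22), Cpne2 (0.69) and F11r (0.51), and among genes picked by the size of the difference Nxpe5 (5.79), Hes3 (5.33), Prl2c5 (4.26) and Atp12a (4.09). Lower in NOD were Cyp1a2 (-4.95), Cd3d (-1.73), Csf1r (-1.17) and Lck (-1.15), and by size Ctsk (-6.80), Klk1b24 (-5.56), Slc9c1 (-5.54) and Gsdmcl-ps (-5.46). Where a group held no count, as in NOD Aire-/- for Cyp1a2, Ctsk, Klk1b24, Slc9c1 and Gsdmcl-ps and in B6 Aire-/- for Nxpe5, the fitted difference depends on the prior count and is no measured size. Of the genes called in opposite directions in the strains, the difference was -3.15 for Prg3, -2.75 for Myh4, -2.71 for Vwf, -2.18 for Drc1, 2.21 for Fbn1 and 2.18 for Tg.

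Single B6 libraries stood far from the rest of their group by Dixon's criterion, which chance meets in about 1 of 20 groups. In Aire-/- these were Drc1 (25.3 CPM), Cd3d (15.4 CPM), Tg (10.5 CPM), Klk1b24 (5.21 CPM) and Atp12a (0.80 CPM). In Aire+/- it was Uts2b (12.6 CPM).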

How the results depend on the processing

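The count of genes higher in NOD Aire-/- was 1207 in the fit of the 6 libraries alone, against 582, and 387 to 529 with each library left out. The total was 1403 to 1543 with each library left out and 1477 after thinning. No called gene that a repeat also called changed sign. The count of genes whose change differed between strains was 329 to 573 with each library left out, with 182 to 331 higher and 138 to 242 lower in NOD. The share of counts in the genes at least 2-fold lower in B6 Aire-/- had a ratio of 0.4404 (Aire-/- over Aire+/-), 0.749 with no fold limit on the set, 0.414 without its 5 most abundant genes and 0.438 to 0.444 with each library left out. Atp12a, not called in NOD at -0.30, was at 0.19 without Aire+/- library 392, and -0.72 to 0.19 with each library left out. The cause was not tested. Of 106 named genes, 79 kept their direction and their side of the threshold under every alternative. DESeq2 called 1889 genes in NOD, the number also called in the authors' deposited table, of which 1711 were shared with the 1842 here. No paired analysis was possible because the animal numbers in the titles all differ between the groups.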

Other observations

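Mir692-1, a microRNA gene named after its values were seen, was at 0.868, 5.53 and 679 CPM in Aire-/- libraries, against 14.98, 3.41 and 4.06 CPM in Aire+/- libraries. The high value came from 1 Aire-/- library, 406, and the comparison did not pass by edgeR (log2 5.04 ± 2.39, adjusted p = 0.217).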
